A study of Homo sapiens with 4 samples.

Results

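The tissue kallikreins are secreted serine proteases, and the genes described here are 6 of them (KLK5, KLK6, KLK7, KLK8, KLK10 and KLK11) with 3 genes of protease inhibitors (SPINK5, SPINT1 and SPINT2). These 9 genes were taken by symbol from a table of 25369 genes, and every symbol was found. RNA came from H226, an established human cell line labelled as lung squamous cell carcinoma, in which doxycycline switches on a short hairpin RNA. The shp63 group (2 cultures) carried a hairpin against p63, and the shControl group (2 cultures) carried a non-targeting hairpin. All 4 cultures spent 6 days in doxycycline at 1 µg/mL. The labels name 1 hairpin construct per group and do not say whether each line was a clone or a pool. A hairpin's effect and its target's therefore cannot be told apart.

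In squamous epithelium, kallikreins are made as inactive precursors, activate each other outside the cell and cut the desmosomal proteins that hold the outermost cells together. KLK5 is the trypsin-like kallikrein that can start this cascade, and KLK7 is a chymotrypsin-like member. SPINK5 encodes LEKTI, a secreted Kazal-type inhibitor of these proteases, and loss of LEKTI in people causes the scaling skin disease Netherton syndrome. SPINT1 and SPINT2 encode the membrane-anchored Kunitz-type inhibitors HAI-1 and HAI-2, which act mainly on membrane-anchored proteases such as matriptase and prostasin. p63 is a transcription factor of basal squamous cells.

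The kallikrein genes that could be tested fell in shp63, and both Kunitz inhibitor genes rose. Of the 9 genes, 5 had enough reads to be tested: KLK5, KLK6 and KLK10 were lower, and SPINT1 and SPINT2 were higher (edgeR quasi-likelihood test, adjusted p under 0.05). Among all 14901 tested genes 74% passed that threshold, 36.9% as higher and 37.1% as lower in shp63, so a call alone says little about these genes. All 5 also passed a test for a change beyond 1.5-fold, which 22.7% of tested genes passed (12.7% higher and 10% lower). The other 4 genes (KLK7, KLK8, KLK11 and SPINK5) had at most 17 reads in any library and were left out by the filter on low counts. The 5 tested genes passed that filter in both groups.

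The libraries summed to 51926832 to 53924761 counted reads. TP63 had 1596 and 1530 reads in the shp63 libraries, against 7533 and 7364 reads in the shControl libraries, so the hairpin labels held in every library. Replicates correlated at 0.997 in log2 CPM (reads per 1000000 counted, scaled by library) in both groups, across genes, and no library stood apart. Squamous markers moved with the group: 9 of 10 were lower, where 37.1% of all tested genes were, and KRT6A was higher. The 9 include TP63, the hairpin's own target. The 10 markers summed to 3222 to 3414 CPM in shp63, against 4969 to 5071 CPM in shControl. KRT17 supplied most of that sum, at 3062 CPM in shp63, against 3898 CPM in shControl, and fell only 1.27-fold. KRT5, the basal squamous keratin gene, stood at 148 CPM in shp63, against 757 CPM in shControl. SOX2, another squamous gene, was close to absent in both groups, with 1 and 3 reads in shp63, against 14 and 11 reads in shControl. It passed the filter on low counts through shControl alone. Leukocyte markers summed to 81.6 to 85.3 CPM in shp63, against 14.8 to 16.3 CPM in shControl. Of 5 tested, CD14, CD68, CSF1R and LYZ were higher, where 36.9% of all tested genes were, and ITGAM was lower. LYZ, with 33 and 21 reads in shp63, against 1 and 1 in shControl, passed the filter through shp63 alone. MS4A1 and FCGR3A were at 0 throughout, and PTPRC had 8 reads or fewer per library. Only MSLN and UPK3B of the 6 mesothelial markers were tested, and both were higher, where 36.9% of all tested genes were. The 6 summed to 630.0 to 636 CPM in shp63, against 334 to 361 CPM in shControl. WT1 had 0 and 0 reads in shp63, against 3 and 4 in shControl, and CALB2 had 6 and 2 against 8 and 8. LRRN4 had 2 reads or fewer per library, and ITLN1 was at 0. Fibroblast markers summed to 86.0 to 93.8 CPM in shp63, against 113 to 118 CPM in shControl. Of 4 tested, FAP was higher and COL1A1 and PDGFRB lower, where 36.9% of all tested genes were higher and 37.1% lower. COL3A1 was not past the threshold, and DCN was at 0. PDGFRB, with 5 and 4 reads in shp63, against 25 and 19 in shControl, passed the filter through shControl alone. Lung airway and alveolar markers summed to 3.37 to 3.46 CPM in shp63, against 4.36 to 4.82 CPM in shControl. Of 4 tested, NKX2-1 and FOXJ1 were lower, where 37.1% of all tested genes were, and SCGB1A1 and NAPSA did not pass. SFTPA1 and SCGB3A1 were at 0. FOXJ1 also passed the filter through shControl alone, with 5 and 7 reads in shp63, against 22 and 23 in shControl. The part of these markers in the kallikrein and inhibitor results was not tested. Fewer cells that express a gene and less RNA per cell cannot be told apart in such bulk libraries.

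Sequences upstream of 3 start sites are shown because KLK5 and KLK10 fell by nearly the same fold while SPINT1 rose. Each is the run of 250 bases before the transcription start, on the strand of the gene, from RefSeq (GRCh38.p14), and its place in GRCh37 was found by exact match. Capitals mark CpG pairs.
KLK5, chr19:51456295-51456544, minus strand: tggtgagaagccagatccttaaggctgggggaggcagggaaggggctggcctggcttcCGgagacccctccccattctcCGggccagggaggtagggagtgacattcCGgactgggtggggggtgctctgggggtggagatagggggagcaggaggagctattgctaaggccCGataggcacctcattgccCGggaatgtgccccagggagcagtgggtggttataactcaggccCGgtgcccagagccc
KLK10, chr19:51522966-51523215, minus strand: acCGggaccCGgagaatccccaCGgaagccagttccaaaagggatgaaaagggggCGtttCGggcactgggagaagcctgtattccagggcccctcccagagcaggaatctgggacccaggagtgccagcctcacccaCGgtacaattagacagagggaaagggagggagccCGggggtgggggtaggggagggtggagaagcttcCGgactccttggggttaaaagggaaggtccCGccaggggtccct
SPINT1, chr15:41135996-41136245, plus strand: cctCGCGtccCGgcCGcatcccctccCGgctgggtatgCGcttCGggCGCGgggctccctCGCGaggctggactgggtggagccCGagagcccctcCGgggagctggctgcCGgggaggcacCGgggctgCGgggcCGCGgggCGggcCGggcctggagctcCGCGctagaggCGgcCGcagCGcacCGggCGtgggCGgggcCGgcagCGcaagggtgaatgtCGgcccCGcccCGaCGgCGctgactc

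The SPINT1 window held 35 CpG pairs and was 80.4% G and C, while the KLK5 window held 6 CpG pairs at 64.8% and the KLK10 window 9 at 62.8%. Across 35116 RefSeq windows of the same length the median was 11 CpG pairs and 58% G and C. The SPINT1 window lay at the 95.1 percentile for CpG pairs, against 41.1 for KLK5 and 47.8 for KLK10. The paired core of the p53 family response element was searched as both half-site cores exactly 6 bases apart, on both strands without mismatches. Other spacings were not searched. Such a pair was found in none of these 3 windows and in 4.02% of all windows. Single half-site cores, which 92.8% of all windows hold, numbered 0 in the KLK5 window, 1 in the KLK10 window and 2 in the SPINT1 window. The absence of a pair says only that these letters are not in these windows. KLK10 and SPINT1 each have a second annotated start. Its window held no such pair and 5 single cores for KLK10, and 1 pair and 3 single cores for SPINT1. A window of KLK7, which is not shown, also held 1 pair. Windows were matched for 7 of the 9 genes.

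KLK5 lies on chromosome 19 from 51446559 to 51456349 on the minus strand (GRCh37). It had 62 and 49 reads in the shp63 libraries, against 360 and 359 reads in the shControl libraries. Both shp63 libraries lay far below both shControl libraries. Its level averaged 1.08 ± 0.152 CPM in shp63 and 6.59 ± 0.131 CPM in shControl (SD, n = 2 each), a 6.05-fold fall (log2 fold change -2.60, SE 0.13; adjusted p = 7.4e-14, edgeR quasi-likelihood test). KLK5 ranked 100 from the lowest log2 fold change among the 14901 tested genes.

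KLK10 encodes a kallikrein first described in normal breast epithelium and lies on chromosome 19 from 51515995 to 51523431 on the minus strand. It had 33 and 28 reads in shp63, against 211 and 188 reads in shControl. The groups did not overlap, as was the case for 86.4% of tested genes. The level was 0.596 ± 0.0537 CPM in shp63 and 3.65 ± 0.218 CPM in shControl (SD, n = 2 each), 6.10-fold lower in shp63 (log2 fold change -2.61, SE 0.17; adjusted p = 8.24e-12, edgeR). KLK10 ranked 95 from the lowest fold change, beside KLK5, and the log2 fold changes of KLK5 and KLK10 differed by less than either standard error.

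KLK6, which encodes a trypsin-like kallikrein abundant in brain, lies between them on chromosome 19 from 51461887 to 51472929 on the minus strand. It had 87 and 121 reads in shp63, against 200 and 221 reads in shControl. The shp63 libraries were the lower ones but spread more widely for this gene than for KLK5. The level was 2.04 ± 0.524 CPM in shp63 and 3.86 ± 0.356 CPM in shControl (SD, n = 2 each), 1.89-fold lower in shp63 (log2 fold change -0.92, SE 0.15; adjusted p = 1.16e-05, edgeR). KLK6 therefore fell less than KLK5 or KLK10 in value, and that difference between genes was not tested.

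Reads for the remaining kallikreins were few. KLK7 had 0 and 1 reads in shp63, against 9 and 2 reads in shControl. Summed over each group that is 1 read against 11, a 10.3-fold lower ratio with an exact 95% interval of 1.5 to 443, which covers counting error only. KLK8, the gene of a kallikrein known as neuropsin, had no read in either shp63 library, against 17 and 3 reads in shControl. With 3 reads over the group as the limit that a count of 0 allows, KLK8 was at least 6.24-fold lower in shp63 if the 20 shControl reads are taken as exact, and the exact 95% interval of the ratio begins at 4.62-fold. Its shControl libraries differed widely from each other, and shControl replicate 1 held 17 of the reads. With all libraries kept, KLK8 did not pass the filter on low counts. KLK8 passed it when either shp63 library or shControl replicate 2 was left out, but not when shControl replicate 1 was left out. Fitted without the low-count filter, the adjusted p was 0.0368 for KLK7 and 0.00138 for KLK8 (edgeR), and 0.16 and 0.00596 with DESeq2. KLK11 had 0 and 1 reads in shp63, against 1 and 5 reads in shControl, and no difference was detectable at this depth (5.61-fold lower, interval 0.681 to 258).

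Over the 6 kallikreins together, reads numbered 182 and 200 in the shp63 libraries, against 798 and 778 reads in the shControl libraries. KLK5, KLK6 and KLK10 supplied nearly all of them. KLK7, KLK8 and KLK11 thus stood at the edge of detection in H226 with either hairpin.

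**Figure D1:**
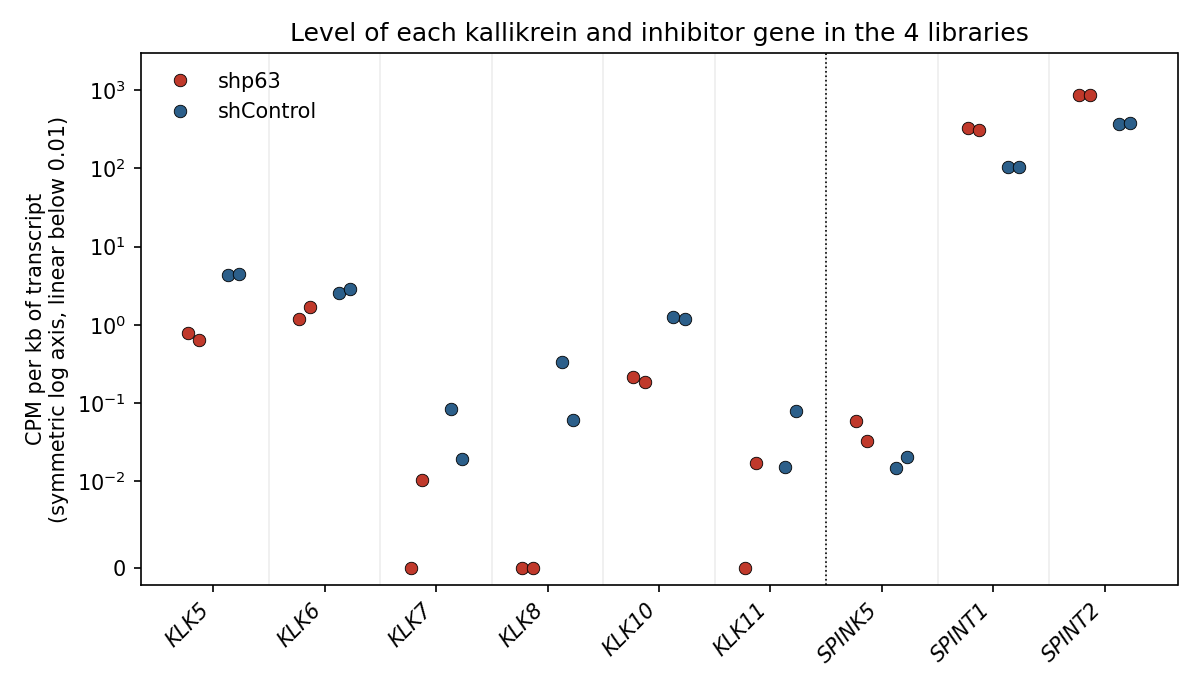
Level of each kallikrein and inhibitor gene in CPM per kb of transcript on a symmetric log axis, linear below 0.01, with 1 point per library, shp63 at the left and shControl at the right of each gene and a dotted line between proteases and inhibitors. KLK5, KLK6 and KLK10 lie lower in both shp63 libraries, and SPINT1 and SPINT2 lie higher. KLK7, KLK8, KLK11 and SPINK5 rest on few reads and lie no higher than 0.335 CPM per kb in any library.

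The plus strand of chromosome 15 carries SPINT1 at positions 41136216 to 41150405. The gene had 51163 and 46522 reads in shp63, against 17405 and 16764 reads in shControl. Both shp63 libraries were near the same high level. The mean was 956 ± 39.3 CPM in shp63 and 313 ± 1.45 CPM in shControl (SD, n = 2 each), a 3.05-fold rise (log2 fold change 1.61, SE 0.04; adjusted p = 2.46e-20, edgeR). SPINT1 ranked 575 from the highest fold change, at the 96.1 percentile of tested genes.

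SPINT2 is on the plus strand of chromosome 19 at positions 38734675 to 38783255, far from the kallikreins. It had 76693 and 73753 reads in shp63, against 34516 and 34474 reads in shControl. The replicates of each group were close and the groups stood well apart. The mean was 1473 ± 2.32 CPM in shp63 and 632 ± 13.3 CPM in shControl (SD, n = 2 each), a 2.33-fold rise (log2 fold change 1.22, SE 0.04; adjusted p = 2.65e-18, edgeR). It lay at the 93.3 percentile of log2 fold changes.

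SPINK5, which spans positions 147405246 to 147516945 of chromosome 5 (plus strand), had 11 and 6 reads in shp63, against 3 and 4 reads in shControl. The groups did not overlap, but the numbers are small: 17 reads against 7 give a ratio of 2.60 with an exact 95% interval of 1.02 to 7.40 for counting error only. Without the low-count filter its adjusted p was 0.0985 (edgeR) and 0.312 (DESeq2). The secreted LEKTI gene therefore showed no difference that passed either test. Its ratio had the direction of the SPINT1 and SPINT2 rises but rests on far fewer reads. Whether SPINK5 differed from SPINT1 and SPINT2 was not tested.

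**Figure D2:**
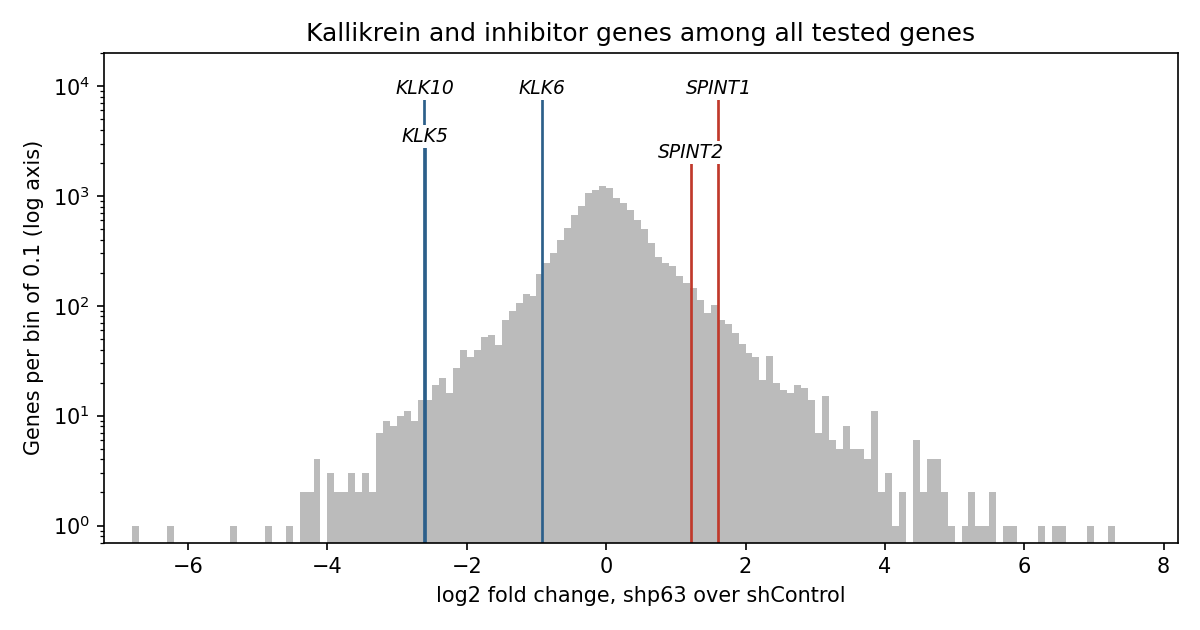
Distribution of log2 fold changes, shp63 over shControl, for all 14901 tested genes in bins of 0.1 on a log count axis, with vertical lines at the 5 tested kallikrein and inhibitor genes. KLK5 and KLK10 fall together at -2.60 and -2.61 in the lower tail, KLK6 at -0.92, and SPINT2 and SPINT1 at 1.22 and 1.61 on the upper side.

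Levels were set side by side per length, as CPM per kb of the MANE Select transcript in GENCODE v44 lifted to GRCh37. In shp63 the order was SPINT2 (872 CPM per kb), SPINT1 (321), KLK6 (1.43), KLK5 (0.717), KLK10 (0.200) and SPINK5 (0.0453), with KLK7, KLK8 and KLK11 below 0.01. In shControl the order was SPINT2 (374 CPM per kb), SPINT1 (105), KLK5 (4.35), KLK6 (2.70), KLK10 (1.22), KLK8 (0.198), KLK7 (0.0510), KLK11 (0.0472) and SPINK5 (0.0176). KLK5 and KLK6 thus stood in opposite order in the 2 groups. KLK6 had 1.17 and 1.69 CPM per kb against 0.788 and 0.646 for KLK5 in shp63, and in shControl KLK6 had 2.52 and 2.88 against 4.29 and 4.41 for KLK5, so the libraries did not overlap between the genes in either group. Neighbours from KLK8 downward in shControl did not differ beyond their spread. SPINT2 ranked 43 from the highest in shp63 and 133 in shControl among 12490 tested genes with such a length, and SPINT1 ranked 181 in shp63 and 606 in shControl. KLK5 lay at the 14 percentile of those genes in shp63 and at 35.1 in shControl, KLK6 at 19.9 and 27.3, and KLK10 at 6.92 and 19.

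The kallikreins share a position. All 15 tissue kallikrein genes lie in 265 kb of chromosome 19 from 51322402 to 51587502, and 10 of them had at least 1 read. Reads were concentrated in the stretch from KLK5 to KLK10. The classical prostate kallikreins KLK2 and KLK3, and KLK4, KLK12 and KLK15, had none in any library. Of the 9 kallikreins outside the 6 described above, only KLK9 was tested, named here after its values were seen. KLK9 had 2 and 0 reads in shp63, against 101 and 75 reads in shControl, and passed the filter through its shControl libraries alone. From 2 and 176 summed reads, KLK9 was 82.3-fold lower in shp63 with an exact 95% interval of 22.5 to 685 for counting error. The fitted log2 fold change of KLK9 was -6.20 with SE 0.48 (adjusted p = 9.98e-11, edgeR). KLK14 had 2 and 4 reads in shp63, against 5 and 6 reads in shControl, KLK13 had 0 and 0 against 1 and 2, and KLK1 had 1 and 0 against 2 and 0.

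Some counts in the cluster depend on how shared exons were assigned. KLK8 and KLK9 share 204 exonic bases on the same strand, and 1390 of the 1443 exonic bases of KLK9 also belong to an unnamed protein-coding gene that spans both. KLK5, KLK6 and KLK10 overlap lncRNA exons on the opposite strand by 202, 401 and 240 bases with the gene of largest overlap, and SPINT1 overlaps its antisense gene SPINT1-AS1 by 100 bases. SPINT2 shares 242 exonic bases with an unnamed protein-coding gene on the same strand and 622 with an lncRNA on the opposite strand. Whether the counting used strand is not given in the sources used here.

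Genes that flank the cluster were examined after these values were known. Within 200 kb of either end the table held 10 protein-coding genes that are not kallikreins, and 2 were tested. CTU1, next to KLK14, had 104 and 115 reads in shp63, against 94 and 138 reads in shControl (log2 fold change 0.01, SE 0.18; adjusted p = 0.953, edgeR). CLEC11A, on the other side, had 44 and 28 reads in shp63, against 30 and 32 reads in shControl (log2 fold change 0.31, SE 0.27; adjusted p = 0.301, edgeR). Neither passed the threshold. KLK5, KLK6 and KLK10 fell, as did KLK9, which entered the test through its shControl libraries alone, and the difference between the cluster and its flanks was not tested.

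**Figure D3:**
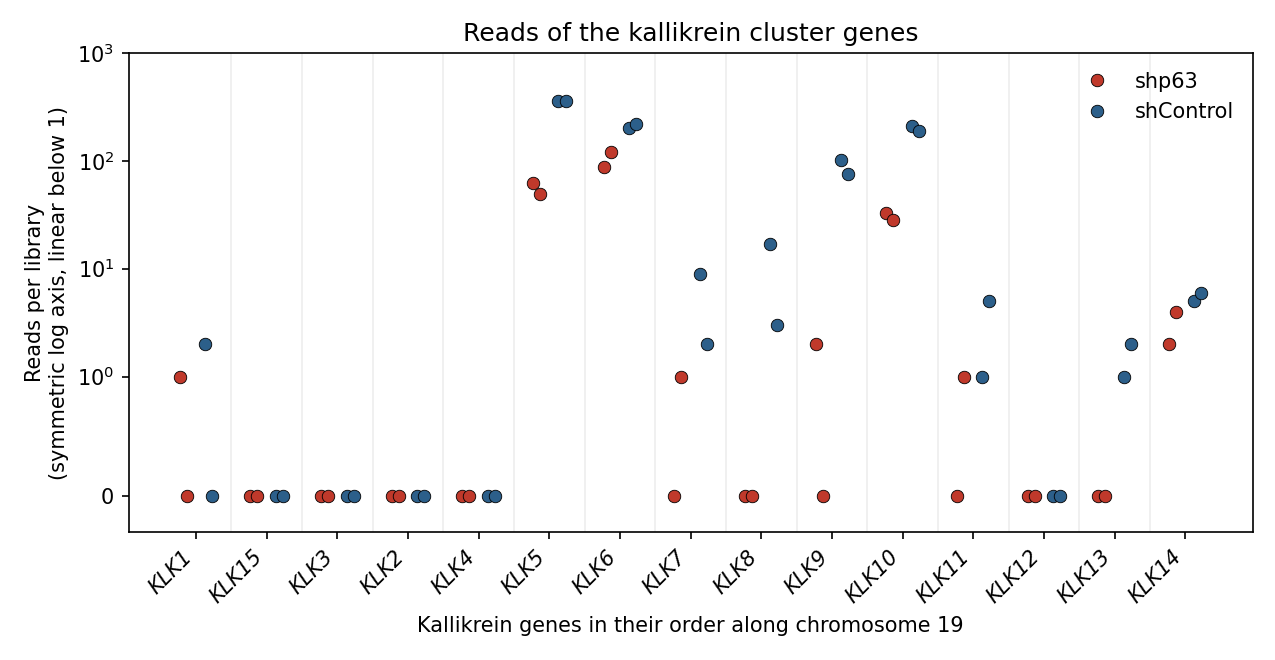
Reads per library, on a symmetric log axis that is linear below 1, for the 15 tissue kallikrein genes in their order along chromosome 19, with shp63 at the left and shControl at the right of each gene. KLK5, KLK6, KLK9 and KLK10 hold most reads, and each has fewer in both shp63 libraries than in either shControl library, while KLK15, KLK3, KLK2, KLK4 and KLK12 are at 0 throughout.

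Most tested members of the list of proteases that HAI-1 and HAI-2 act on, and their relatives, rose. Of 16 listed membrane-anchored and related trypsin-like proteases 13 were tested, and 11 rose, where 36.9% of all tested genes did, and none fell. TMPRSS11A and HGFAC, the hepatocyte growth factor activator that HAI-1 inhibits, did not pass. The list had a median log2 fold change of 1.11 against -0.01 over all tested genes. ST14, the gene of matriptase, had 868 and 846 CPM in shp63, against 407 and 411 CPM in shControl, and rose 2.10-fold (log2 fold change 1.07, SE 0.03; adjusted p = 7.52e-18, edgeR). PRSS8, encoding prostasin, had 132 and 126 CPM in shp63, against 43.3 and 44.1 CPM in shControl, and rose 2.95-fold. PRSS22, encoding a tryptase of airway epithelium, rose 4.04-fold to 81.2 ± 0.901 CPM in shp63, against 20.1 ± 1.85 CPM in shControl (SD, n = 2 each). HPN, encoding hepsin, also rose, with 28 and 22 reads in shp63, against 7 and 11 reads in shControl, and passed the filter through shp63 alone. Per length, ST14 stood at 259 CPM per kb in shp63 and 124 in shControl, between SPINT2 and SPINT1 in shControl and below both in shp63.

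Other inhibitor genes moved both ways, as did all tested genes together, of which 36.9% rose and 37.1% fell. Of 9 further Kazal-type SPINK genes only SPINK4 was tested, at 2.14 CPM in shp63 and 2.04 CPM in shControl (adjusted p = 0.682, edgeR). Among 10 other genes with Kunitz domains 5 were tested: 4 rose (TFPI2, TFPI, APP and APLP2) and WFIKKN1 did not pass (median log2 fold change 0.76). TFPI2, a secreted Kunitz inhibitor of the matrix, had 490 and 518 CPM in shp63, against 49.7 and 52.0 CPM in shControl, and rose 9.92-fold. APP, encoding the amyloid precursor protein, rose 1.69-fold and its relative APLP2 rose 1.51-fold.

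Of 20 listed serpins, cystatins, elafin-type inhibitors and macroglobulins 19 were tested, of which 10 rose, 7 fell and 2 (WFDC2 and SERPINB8) did not pass (median log2 fold change 0.22). Over all tested genes 36.9% were higher and 37.1% lower. SERPINA3, the gene of antichymotrypsin, rose 7.56-fold to 32.3 ± 1.51 CPM in shp63, against 4.27 ± 0.352 CPM in shControl (SD, n = 2 each). SERPINA1, encoding alpha-1-antitrypsin, rose 6.40-fold, and CST6, encoding the epidermal cystatin M/E, rose 4.14-fold. The members that fell were 4 clade B serpins (SERPINB3, SERPINB4, SERPINB5 and SERPINB13) with CSTA, A2ML1 and SERPINF2. SERPINB13, a squamous cysteine protease inhibitor, fell 14.0-fold, SERPINB5, encoding maspin, fell 1.92-fold, and CSTA, encoding cystatin A, fell 1.89-fold. A2ML1, a broad inhibitor made by keratinocytes, had 27 and 33 reads in shp63, against 68 and 50 in shControl.

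**Figure D4:**
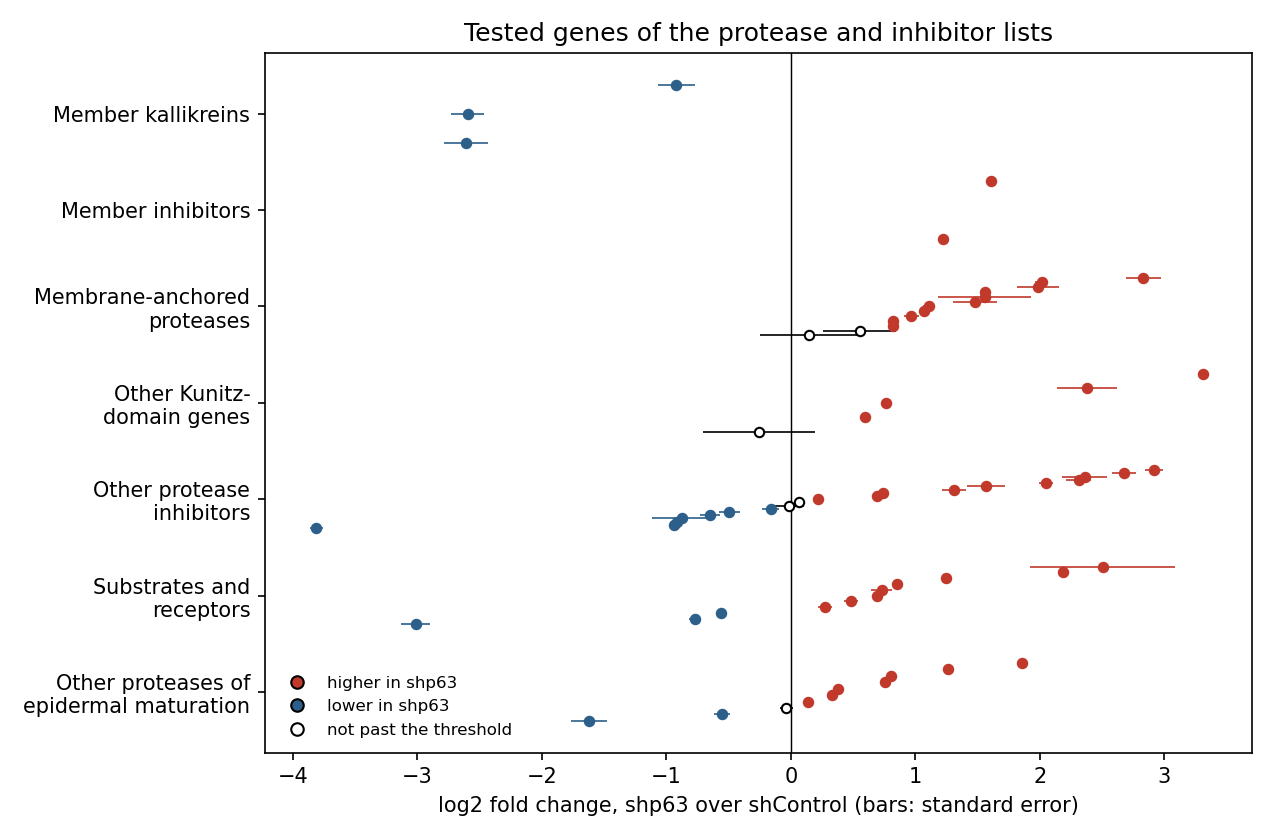
Log2 fold change, shp63 over shControl, with its standard error for each tested gene of 7 groups, with filled points past an adjusted p of 0.05 (edgeR) and open points not past it. The 3 tested kallikreins lie left of 0. The 2 tested inhibitors and 11 of 13 membrane-anchored and related proteases lie right of it past the threshold, and the other inhibitors lie on both sides.

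Among other proteases of epidermal maturation 7 rose, 2 fell (CASP14 and CTSV) and 1 (BLMH) did not pass, of 10 tested (median log2 fold change 0.35). The shares over all tested genes were 36.9% higher and 37.1% lower. CTSL, encoding lysosomal cathepsin L, rose 3.63-fold to 831 ± 11.2 CPM in shp63, against 229 ± 3.35 CPM in shControl (SD, n = 2 each). FURIN, a proprotein convertase that activates many secreted precursors, rose 2.40-fold, and CTSB, encoding cathepsin B, rose 1.75-fold. CASP14, the caspase of cornifying keratinocytes, fell 3.07-fold from low levels, to 1.26 ± 0.0468 CPM in shp63, against 3.89 ± 0.318 CPM in shControl. CTSV, encoding a cysteine cathepsin of skin and thymus, fell 1.47-fold.

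Of 20 known substrates and receptors downstream of kallikreins or matriptase 11 were tested, 8 of them rising and F2R, F2RL1 and MET falling (median log2 fold change 0.69). By comparison 36.9% of all tested genes rose and 37.1% fell. F2RL1 encodes PAR2, the receptor that KLK5 and matriptase cleave, and had 20.9 and 21.6 CPM in shp63, against 35.3 and 37.1 CPM in shControl, 1.70-fold lower. F2R, encoding the thrombin receptor PAR1, had 1.11 and 1.14 CPM in shp63, against 9.14 and 9.08 CPM in shControl, and fell 8.08-fold. MET, the receptor of hepatocyte growth factor, fell 1.48-fold.

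The 8 genes that rose included PLAUR, SCNN1A and EPCAM. PLAUR, encoding the urokinase receptor, rose 4.55-fold to 62.4 ± 1.57 CPM in shp63, against 13.7 ± 0.313 CPM in shControl (SD, n = 2 each). SCNN1A, encoding a subunit of the sodium channel that prostasin helps to activate, rose 2.37-fold, to 947 ± 27.6 CPM in shp63, against 399 ± 1.38 CPM in shControl. The other listed subunit genes of that channel, SCNN1B and SCNN1G, had at most 4 and 1 reads in any library. EPCAM, an adhesion protein that matriptase cleaves and that HAI-2 protects, rose 1.80-fold. Genes of the corneodesmosome, whose proteins kallikreins cut in skin, were near the floor: DSG1 had 8 and 8 reads in shp63, against 10 and 12 reads in shControl, and DSC1 had 3 and 6 reads in shp63, against 3 and 3 in shControl. CDSN, encoding corneodesmosin, had 23 and 10 reads in shp63, against 2 and 4 reads in shControl, and was called higher (adjusted p = 0.000584, edgeR), having passed the filter through shp63 alone.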

How the data were processed

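The deposited table gives each gene symbol's read count in every library, without normalization by the authors. Per the series' design text, reads from a stranded mRNA kit were aligned with TopHat2 to GRCh37 and counted with HTSeq, and the submitters' processing notes give versions 2.0.13 and 0.6.1. Neither the annotation nor the strand setting is given in the sources used here.

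Counts of all 25369 genes were fitted in R 4.3.3 with edgeR 4.0.16 (TMM factors, filterByExpr at its defaults, which ask for about 10 reads in at least 2 libraries and 15 in all, robust quasi-likelihood test, group as the only term, Benjamini-Hochberg over all genes). The filter kept 14901 genes. CPM values use the TMM factors. The submitters call the 2 samples of a group independent biological replicates. An exact permutation test of 2 against 2 cannot give p below 0.333, so calls rest on spread shared across genes. Alternatives were RLE factors, library totals, other filters, DESeq2 1.42.0, limma-voom (limma 3.58.1), a replicate block, each library left out, and a test beyond 1.5-fold.

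The 9 genes, the lists and the naming rule were chosen with earlier results of these data known. The rule names the 9 genes, TP63 and, in each list, up to 3 called genes per direction of smallest adjusted p and at least 1 CPM. Genes named to spell out a count, to show shared exons or neighbours, or with few reads were chosen after their values were seen. No column went unused.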

Additional observations from a re-analysis of the deposited data

How the results depend on the processing

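KLK5, KLK6, KLK10, SPINT1 and SPINT2 kept direction and call under all 13 alternatives. Their log2 fold changes ranged from -2.75 to -2.46 for KLK5, -1.21 to -0.67 for KLK6, -2.70 to -2.52 for KLK10, 1.52 to 1.65 for SPINT1 and 1.13 to 1.23 for SPINT2. KLK6 ran from -1.21 without shp63 replicate 2 to -0.67 without shp63 replicate 1. The fitted value of KLK9, with 2 reads in shp63, ran from -9.42 to -5.31. Against a 1.5-fold change 1894 genes were higher and 1491 lower, instead of 5499 and 5534, because that test asks for a larger change. It also called 3 other inhibitors lower, 4 epidermal proteases higher and 1 lower, and 5 substrates higher. With no low-count filter more genes are tested, and 5 of the 9 genes were lower (KLK7 and KLK8 added), 1 further SPINK gene (SPINK8) was higher and 1 further Kunitz gene (AMBP) was lower. Leaving out single libraries gave 5168 to 5272 genes higher and 5171 to 5314 lower, 2 to 3 of the 9 genes higher and 3 to 4 lower, and 0 to 1 further SPINK gene higher, with the lone library of a group assumed to vary like the others. The added genes there were SPINK5 (adjusted p = 0.0467 without shp63 replicate 2, edgeR), KLK8 and SPINK8. The SPINK4 log2FC, never called, changed sign to -0.017 with library totals, and ran from -0.046 to 0.18 with single shControl libraries left out. Library totals moved the median of all genes to -0.10 and gave 4658 genes higher and 6591 lower. Same-numbered replicates did not deviate together (correlation -0.112), so the numbers were not taken as pairs. The replicate block gave 5408 genes higher and 5450 lower, and crossed numbers, added after seeing the data, gave 5659 and 5728. Depth limits KLK7, KLK8, KLK11 and SPINK5, with 17 reads or fewer per library.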

Other observations

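KLKB1, the gene of plasma kallikrein, lies outside the chromosome 19 cluster and in no list above. It had 18 and 14 reads in shp63, against 5 and 1 reads in shControl, opposite in direction to the tissue kallikreins (log2 fold change 2.46, SE 0.56; adjusted p = 0.000476, edgeR quasi-likelihood test). It passed the low-count filter through its shp63 libraries alone.

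MEP1A, encoding the protease meprin alpha that activates epithelial precursors, had no read in either shp63 library, against 8 and 3 reads in shControl. SPINK8 had 12 and 9 reads in shp63, against 2 and 4 reads in shControl. Both were below the filter, and without it their adjusted p was 0.00731 for MEP1A and 0.0155 for SPINK8 (edgeR). With DESeq2 neither was called, and the adjusted p of SPINK8 was 0.132.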
